A study of Mus musculus with 2 samples.

Results

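Imprinted genes were read in mouse iPSCs, induced pluripotent stem cells made from somatic cells by reprogramming. The cells had been kept in medium with serum and 2i, which blocks the kinases Mek and Gsk3 and keeps mouse pluripotent cells naive. The study compared 1 hybridized sample with 1 live sample of these cells, each on 1 array. The labels name the cells in both groups only as iPSCs in 2i with serum. They give no strain, genotype, sex or line, and do not state what hybridization consisted of. The set was 10 named genes: 7 paternally expressed (Peg10, Peg3, Mest, Impact, Ndn, Igf2 and Plagl1) and 3 maternally expressed (Grb10, H19 and Cdkn1c). A gene counted as measured where a probe set, the group of short probes that reads a transcript, is assigned to that gene alone. This gave 9 genes and 22 probe sets, out of 12393 genes and 22690 probe sets on the array. H19 was left out by the rule because its only probe set is also assigned to Mir675. Each difference is the log2 value of the hybridized array minus that of the live array. It has no replicate error and no test, because each group has 1 array. The differences describe these 2 preparations, and hybridization cannot be told apart from anything else that differed between them.

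Imprinted genes are expressed mainly from the copy inherited from either the mother or the father. For many of them, DNA methylation laid down in the egg or sperm sets the choice. It lies at control regions that the embryo then protects from erasure. In general, paternally expressed members of this class promote growth of the fetus and placenta, while maternally expressed members such as Cdkn1c and Grb10 restrain it. Pluripotent stem cells can lose these marks in culture, and 2i is known to lower DNA methylation across the genome. An expression array reads the total transcript of a gene. The values below therefore give levels and do not say which parental copy was read.

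The cells carried the markers of their label. All 8 pluripotency markers lay between 10.83 and 13.17 on the hybridized array and between 11.53 and 13.14 on the live array. Of 8 primitive endoderm markers, a lineage in which several imprinted genes are high, 0 reached a mean of 5, called the level below. It was chosen as a limit and is no detection call. On the arrays as a whole, the 5' probe set of the Actb control was 1.76 higher on the hybridized array and its 3' probe set differed by -0.76. The Gapdh control gave 0.96 at the 5' and -0.85 at the 3' probe set, while for Tfrc both were higher, by 1.88 and 1.38. The 18 hybridization controls, transcripts added to each array's target in fixed amounts, differed by a median of -0.80, with a range from -1.22 to -0.15.

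Of the 9 measured members, 7 had a mean of 5 or more on their brightest probe set, 6 of them paternally expressed and 1, Grb10, maternally expressed. Peg10 and Impact were higher by 2-fold or more on the hybridized array, and Ndn was lower by 2-fold or more. Across all 7262 genes at this level, 8.43% were higher by 2-fold or more and 15.4% lower by 2-fold or more. Peg10 was under the level on the live array and passed on the strength of its hybridized value, so these counts are a description only. Centring on the hybridization controls adds 0.80 to each difference, so values from -0.80 to 0 change sign. With it, 4 members were higher by 2-fold or more and 0 lower, and genes higher made up 91.8% of all genes 2-fold apart, against 35.4% as deposited. That share was 49.4% with centring on the median gene and 54.2% after loess, and under both 2 members were higher and 0 lower. The median difference of the 7 members was 0.32, against -0.17 over all genes at the level. Of the 7, 6 were above 0, as were 41% of all genes. The 6 paternally expressed members had a median of 0.23, with a range from -1.10 to 4.11, and Grb10 stood at 0.71. Over probe sets, 13 of the members' 22 were at the level, 2 of them higher by 2-fold or more and 3, all of Ndn, lower. The shares over all probe sets at the level were 13.1% and 12.8%. With 1 maternally expressed gene at the level, the parental classes could not be compared among the members.

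**Figure D1:**
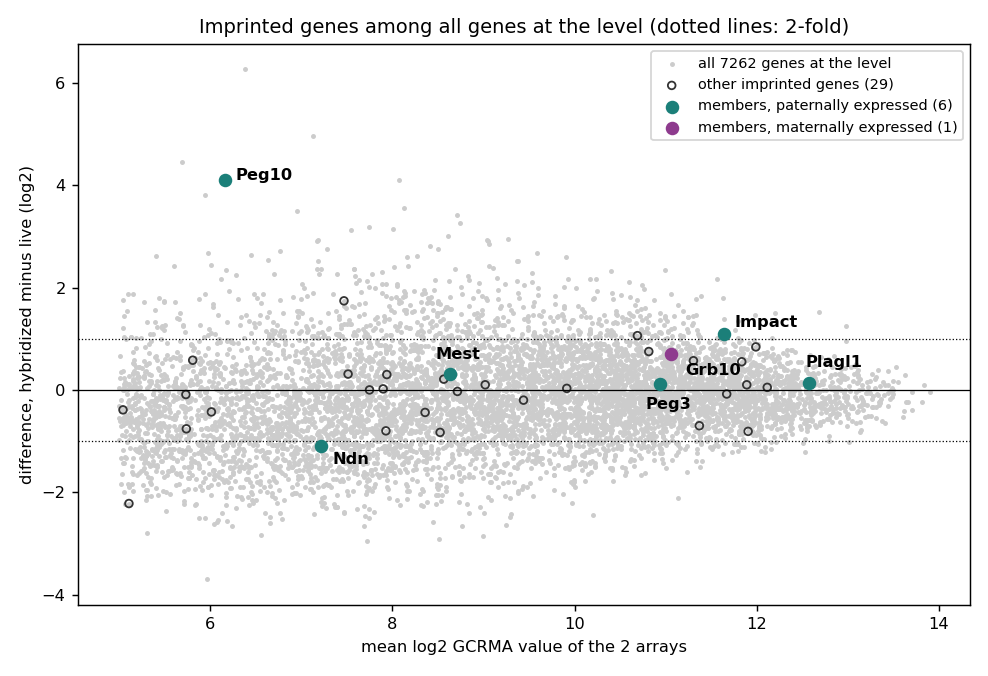
Difference between the arrays (hybridized minus live, log2, vertical axis) against the mean log2 value (horizontal axis) for the 7262 genes with a mean of 5 or more, 1 grey point per gene, with imprinted genes marked. Peg10 lies at 4.11, Impact (1.09) and Ndn (-1.10) lie just beyond the dotted 2-fold lines, and Peg3, Mest, Plagl1 and Grb10 lie inside them.

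Peg10 (Entrez 170676), a gene derived from a retrotransposon and needed for the placenta, had the furthest difference among the members. It read 8.22 on the hybridized array and 4.11 on the live array. The live value was under the level and the hybridized value above it. The difference was 4.11, and no fold is given because the live value is under the level. Among genes with a mean from 5 to under 7, where Peg10 lies, 7.6% were higher by 2-fold or more. That share is for a smaller difference than that of Peg10. Of all 7262 genes at the level, 14 were higher by 3 log2 or more. As far above 0 as Peg10 or further lay 4 genes, Peg10 included. Both counts use the brightest probe set of each gene, and Peg10 has only one. Differences of this size were more frequent among probe sets that were not the brightest of their gene. Of 4438 such probe sets at 5 or more on either array, 7.59% were higher by 4-fold or more. In 34 of them the difference was 4.05 or more. Whether the Peg10 difference is of that kind was not tested. Peg10 has a single probe set here, so no second reading of the gene exists on these arrays. It was the member furthest above 0 under each choice of probe sets and each centring or normalization run, with differences from 4.11 to 4.91. At a level of 7, and with the level of 5 required on both arrays, it was not compared.

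No imprinted neighbour of Peg10 on the array had a difference of that size. Sgce, which encodes epsilon-sarcoglycan and starts beside Peg10 on the opposite strand, read 4.49 and 4.26 on the hybridized and live arrays, under the level. Casd1, an enzyme of sialic acid modification and the only other gene of this cluster at the level, read 8.09 and 7.79. The remaining 5 genes of the cluster on the array, Tfpi2, Pon2, Pon3, Asb4 and Calcr, were under the level.

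Peg3 (Entrez 18616) encodes a large zinc finger protein expressed from the paternal copy. Its 3 probe sets disagreed. The brightest, 1433924_at, read 11 on the hybridized array and 10.88 on the live array, a difference of 0.12. The second, 1417355_at, read 5.65 and 6.30, and was lower on the hybridized array. The dimmest, 1417356_at, read 6.59 and 2.54, a difference of 4.05, and its mean was under the level. The 2 dimmer probe sets are assigned to the same transcript record and lay on opposite sides of 0. Averaging the 3 probe sets moved the difference of Peg3 from 0.12 to 1.17. The positions of the probe sets on the transcript were not used here.

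Usp29, a ubiquitin protease gene, starts close to Peg3 on the opposite strand and is also paternally expressed. Its brighter probe set read 4.22 on the hybridized array and 2.96 on the live array, and its other probe set 2.76 and 2.87. Zim1, a maternally expressed zinc finger gene next to Peg3, read 2.54 and 2.45. All readings of these 2 neighbours were therefore under 5 on both arrays.

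**Figure D2:**
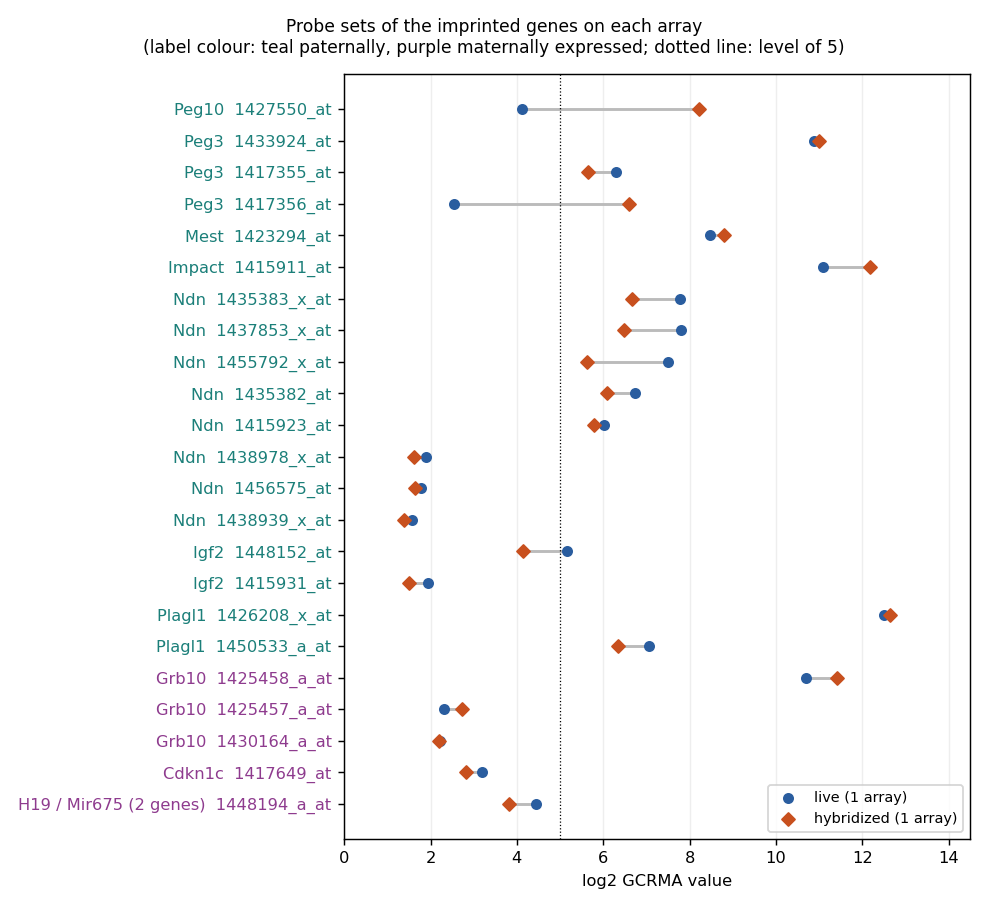
Log2 GCRMA value (horizontal axis) of each probe set of the members on the hybridized array (orange diamonds) and on the live array (blue circles), joined by a grey line. Peg10 and the Peg3 probe set 1417356_at span the level of 5 (dotted line), the 5 brighter Ndn probe sets all lie to the left on the hybridized array, and the probe set shared by H19 and Mir675 reads 3.82 and 4.45.

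Mest (Entrez 17294) encodes an enzyme-like protein of the hydrolase family and is a widely used marker of imprinting in embryonic cells. It read 8.79 on the hybridized array and 8.47 on the live array on its only probe set. The difference of 0.32 was within 2-fold; with control centring it was 1.12. Copg2, a vesicle coat gene that neighbours Mest at its far end, read 9.07 and 8.97. Both genes of this locus were thus at the level on each array and, as deposited, within 2-fold.

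Plagl1 (Entrez 22634), also known as Zac1, is a zinc finger transcription factor that regulates other imprinted genes. It gave the highest signal of the members, although signals of different probe sets do not rank transcripts, at 12.64 on the hybridized array and 12.51 on the live array. A second probe set read 6.34 and 7.06, a difference of -0.72, so the readings lay on opposite sides of 0. The brighter probe set carries the suffix that marks probes shared with other sequences. Without such probe sets the difference of Plagl1 was -0.72, and averaged over both it was -0.30.

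Impact (Entrez 16210) encodes an inhibitor of the kinase Gcn2, which senses amino acid shortage. It read 12.18 on the hybridized array and 11.09 on the live array on its only probe set. The hybridized value was 2.13-fold higher. Among the 1521 genes with a mean from 11 upward, 2.83% were higher by 2-fold or more. Its difference was at least 1.09 in each alternative run.

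Ndn (Entrez 17984) encodes necdin, a growth-restraining protein of the MAGE family that is abundant in neurons. It had 8 probe sets, of which 5 were at the level. The brightest read 6.67 on the hybridized array and 7.77 on the live array, a difference of -1.10. Among genes with a mean from 7 to under 9, where Ndn lies, 20.6% were lower by 2-fold or more. The next, 1437853_x_at, read 6.47 and 7.8, and 1455792_x_at read 5.62 and 7.49. The 2 without a suffix for shared probes, 1435382_at and 1415923_at, read 6.08 and 6.74, and 5.78 and 6.02. All 5 were lower on the hybridized array, with differences from -1.87 to -0.24. Of 106 genes with 5 or more probe sets at the level, 13 had all of them lower on the hybridized array and 17 had all of them higher. The other 3 Ndn probe sets read between 1.39 and 1.90 and carry no order. Probe sets of the same gene share its transcript and are not replicates. The 2-fold call did not hold on the brightest probe set without a suffix, where the difference was -0.66. It also ended with all 8 probe sets averaged, the 3 dim ones included (-0.73). Over the 5 at the level the mean difference was -1.04. The call ended too after loess (-0.70), with centring on the median gene (-0.93) and with centring on the hybridization controls (-0.30). The direction held in each alternative run.

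Single markers of other cells differed in both directions. Of 12 fibroblast markers, 2 were at the level, Col1a1 and Vim. Without Vim, which pluripotent cells also express, the 11 others summed to a linear signal of 95.8 on the hybridized array and 204 on the live array. Their values ran from 1.74 to 4.46 on the hybridized array and from 1.92 to 6.17 on the live array. The largest parts of the sum were Col1a1 (4.46 and 6.17), Twist1 (4.15 and 5.37) and Pdgfrb (3.62 and 5.22). Col3a1, Col1a2 and Dcn were higher on the hybridized array, by 0.04 to 0.19, and the rest were lower. Of 5 neural markers on the array, 1 was at the level, Tubb3, at 8.14 and 9.67, and the 5 summed to 325 and 859. The other 4, Nes, Pax6, Sox1 and Neurog1, differed by -0.12 to -0.02, so the neural sum rests on Tubb3. Of 8 trophectoderm markers, 4 were at the level, and the 8 summed to 8573 on the hybridized array and 6114 on the live array. Tfap2c (12.93 on the hybridized array and 12.24 on the live array) and Krt18 (8.01 and 7.30) were higher on the hybridized array. Krt8 (8.40 and 9.88) and Eomes (7.11 and 7.19) were lower, and the trophectoderm sum rests mostly on Tfap2c. Unlike Vim, Tfap2c was kept in its sum, although its values lay within the range of the 8 pluripotency markers on each array. The direction of the trophectoderm sum is therefore that of Tfap2c and is not read as that of the lineage. The 8 primitive endoderm markers summed to 66.3 and 71.6. Their part in the Ndn difference was not tested. In bulk samples, fewer cells of a type and less RNA per cell cannot be told apart.

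The other genes of the Ndn cluster lay on both sides of 0. Of 7 genes of the cluster on the array, Ndn included, 5 were at the level, 1 higher by 2-fold or more and 1 lower by 2-fold or more. Ube3a, the maternally expressed ubiquitin ligase linked to Angelman syndrome, read 11.22 on the hybridized array and 10.16 on the live array. Its other 2 probe sets at the level were higher too, at 10.30 against 8.31 and 7.01 against 5.69. Mkrn3, a ring finger protein, read 6.10 and 5.52, and Peg12 read 5.80 and 6.23. Atp10a, a lipid-transporting ATPase, read 4.85 and 5.24, and Magel2, a relative of Ndn, read 2.78 and 2.96. Snrpn, which encodes a spliceosomal protein of this cluster, was under the level on its single-gene probe set, at 4.69 and 4.88. The 4 probe sets assigned to both Snurf and Snrpn, 2 proteins made from the same transcript, fall outside the rule. Of these, 3 read 8.05 to 8.89 on the hybridized array and 8.26 to 9.25 on the live array, each lower in the former. The remaining one, 1421063_s_at, read 8.48 and 3.80, a difference of 4.68.

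Igf2 (Entrez 16002), a fetal growth factor, had a mean under the level. Its brighter probe set read 4.14 on the hybridized array and 5.17 on the live array, and its other probe set 1.51 and 1.93. H19 is the maternally expressed noncoding RNA that shares enhancers and a control region with Igf2. The probe set it shares with Mir675 read 3.82 and 4.45. Mir675 appears beside H19 because its hairpin is cut from the H19 transcript. The mature microRNAs that this hairpin yields, from RefSeq (GRCm38.p6, minus strand), are shown to make that overlap concrete, with the seed (bases 2 to 8) in capitals; the array does not measure them.
mmu-miR-675-5p, chr7:142577112-142577133: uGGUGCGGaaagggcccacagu
mmu-miR-675-3p, chr7:142577078-142577099: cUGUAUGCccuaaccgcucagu

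Cdkn1c (Entrez 12577), which encodes the cyclin-dependent kinase inhibitor p57 and is maternally expressed, read 2.81 on the hybridized array and 3.20 on the live array. The means of Igf2, H19 and Cdkn1c were thus under the level, with the live value of Igf2 just above it. Their differences are given as readings only, without a fold. The same chromosomal cluster holds other imprinted genes that were bright. Nap1l4, a histone chaperone, read 12.14 and 12.09, Cd81, a tetraspanin, 11.50 and 12.31, and Dhcr7, an enzyme of cholesterol synthesis, 11.02 and 11.72. Phlda2, a brake on placental growth, read 7.53 and 8.33, and Tssc4 read 8.14 and 8.58. Ascl2, a transcription factor of the trophoblast, read 4 and 6.22, so it was above the level of 5 on the live array only. Of 14 genes of this cluster measured, 6 were at the level, 0 higher by 2-fold or more and 1, Ascl2, lower by 2-fold or more.

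Grb10 (Entrez 14783) encodes an adaptor that dampens insulin and Igf receptor signalling and, outside neurons, is expressed from the maternal copy. It read 11.41 on the hybridized array and 10.70 on the live array on its brightest probe set. The difference of 0.71 was within 2-fold; centred on the hybridization controls it was 1.51. The other 2 probe sets read between 2.19 and 2.74 on both arrays. Ddc, the neighbouring aromatic amino acid decarboxylase gene, paternally expressed in the heart, read 11.19 and 10.44. Both genes of this locus were, as deposited, higher on the hybridized array by under 2-fold.

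**Figure D3:**
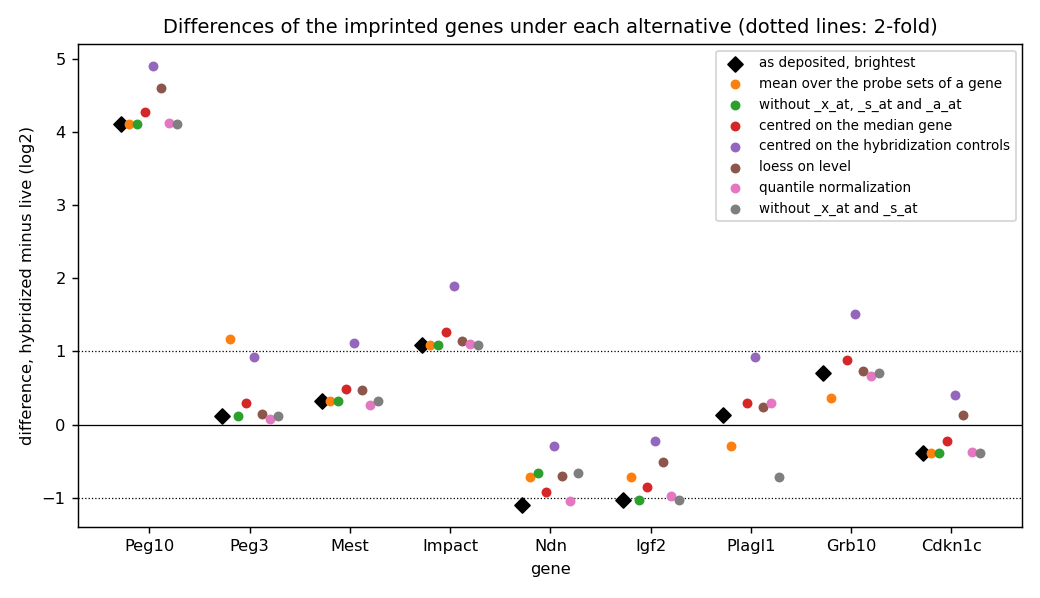
Difference (hybridized minus live, log2, vertical axis) of each measured member under the deposited values with the brightest probe set (black diamonds) and under each alternative that can move it (coloured circles). Peg10 and Impact stay above the upper dotted 2-fold line throughout, Ndn and Igf2 stay below 0, and Plagl1 and Cdkn1c lie on either side of 0.

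The start regions of 5 members at the level are printed so that they can be compared. Those of Peg3, Mest and Plagl1 are known to carry maternal methylation as part of the imprint. The sequences are from RefSeq (GRCm38.p6), read 5′ to 3′ on the strand of the named gene, and end just before the annotated start. For Peg3, the stretch is the 163 bases between the start of Peg3 and that of Usp29 on the other strand. Capitals mark TGCCGC or, on the opposite strand, GCGGCA, the letters that Zfp57 recognises when methylated.
Peg3-Usp29, chr7:6730420-6730582, minus strand: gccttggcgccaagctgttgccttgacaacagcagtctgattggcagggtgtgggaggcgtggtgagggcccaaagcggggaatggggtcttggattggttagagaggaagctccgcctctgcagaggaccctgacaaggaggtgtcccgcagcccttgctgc
Mest, chr6:30737800-30738049, plus strand: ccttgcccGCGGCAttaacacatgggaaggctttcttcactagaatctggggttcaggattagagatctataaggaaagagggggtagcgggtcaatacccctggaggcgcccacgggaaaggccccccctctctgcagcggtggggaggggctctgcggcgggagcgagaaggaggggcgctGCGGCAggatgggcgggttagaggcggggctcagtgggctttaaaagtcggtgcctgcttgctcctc
Ndn, chr7:62348027-62348276, plus strand: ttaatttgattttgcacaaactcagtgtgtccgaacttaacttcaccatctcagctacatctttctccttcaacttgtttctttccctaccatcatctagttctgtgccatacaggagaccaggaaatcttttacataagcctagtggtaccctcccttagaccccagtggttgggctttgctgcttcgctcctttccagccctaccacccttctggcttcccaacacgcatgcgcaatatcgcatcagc
Plagl1, chr10:13090582-13090831, plus strand: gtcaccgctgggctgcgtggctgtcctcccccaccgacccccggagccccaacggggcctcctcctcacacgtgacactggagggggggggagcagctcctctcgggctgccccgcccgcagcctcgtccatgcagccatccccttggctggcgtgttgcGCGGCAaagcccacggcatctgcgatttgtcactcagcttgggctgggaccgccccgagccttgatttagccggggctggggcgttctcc
Grb10, chr11:12037429-12037670, minus strand: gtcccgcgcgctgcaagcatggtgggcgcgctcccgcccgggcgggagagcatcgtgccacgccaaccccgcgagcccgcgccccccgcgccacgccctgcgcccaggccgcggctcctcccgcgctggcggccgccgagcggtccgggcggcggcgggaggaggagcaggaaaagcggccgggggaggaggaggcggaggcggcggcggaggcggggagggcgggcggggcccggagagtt

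The motif was present 2 times in the Mest stretch and 1 time in that of Plagl1, and was not in the windows of Peg3, Ndn and Grb10. Over all 32851 RefSeq start windows, 8.68% held it in the 250 bases before the start. Of the 12 member windows scanned, 3 held it, 2 of Mest and 1 of Plagl1. Those 2 Mest windows had the same motif count (2) and the same CpG count (14). Whether they overlap was not examined, so they are not taken as separate finds. The remaining Mest window and the 4 Igf2 windows did not. The CpG count was 14 in the Mest stretch, 19 in that of Plagl1, 5 in that of Ndn and 40 in the 242 bases of Grb10. It was 5 in the 163 bases of the Peg3 stretch. The median was 6 over all windows of 250 bases. Another window of Grb10 held 8 and another of Mest held 7. Windows of 6 of the 9 measured members were scanned for motifs on both strands. Impact was left out of this scan, and Peg10 and Cdkn1c had no window. A match is a description of the letters and not a binding site.

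Other imprinted genes were taken from a list of 31 symbols for paternally and 44 for maternally expressed genes. Jade1 and Ago2 are also listed under an older symbol, which adds no gene to the counts below. Among the 10 paternally expressed ones at the level, 0 were higher by 2-fold or more and 0 lower by 2-fold or more, and the median was 0.21. Among the 19 maternally expressed ones, 2 were higher by 2-fold or more, 1 was lower by 2-fold or more, and the median was 0. For all genes at the level the median was -0.17. Of the 29 together, 3 were at least 2-fold apart, against 23.8% of all genes. With probe sets averaged, 5 of the other imprinted genes were higher and 0 lower, and with centring on the controls 10 were higher and 1 lower. Several of these genes are imprinted only in the placenta or in single tissues, so their listing does not mean that they are imprinted in these cells.

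The brightest of the paternally expressed list were Slc38a4, an amino acid transporter, at 12.41 on the hybridized array and 11.57 on the live array, Gab1 at 11.94 and 11.84, and Jade1 at 11.63 and 11.71. Gab1 is an adaptor of receptor signalling, and Jade1 is a subunit of a histone acetyltransferase complex. All 3 of these are imprinted in extraembryonic tissue. The other 3 probe sets of Jade1 were higher on the hybridized array, at 12.13 against 11.08, 11.36 against 10.08 and 8.08 against 5.94. The brightest probe set of Jade1 thus differed from its others. Dimmer probe sets of Gab1 read 11.56 against 10.99 and 7.72 against 4.77, and that of Slc38a4 read 8.66 against 8.84. In the maternally expressed list, Qpct, which cyclises glutamine at protein ends, read 8.34 and 6.60. Commd1, a copper and trafficking regulator, read 12.11 and 11.56, and 10.47 and 8.94 on its dimmer probe set. Igf2r, which clears Igf2 and sends it to lysosomes, read 9.93 and 9.90. Meg3, a noncoding RNA used as a marker of stem cell quality, was under the level, at 3.89 and 5.45 on its brightest probe set, while Rian of the same cluster read 7.91 and 7.89.

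**Figure D4:**
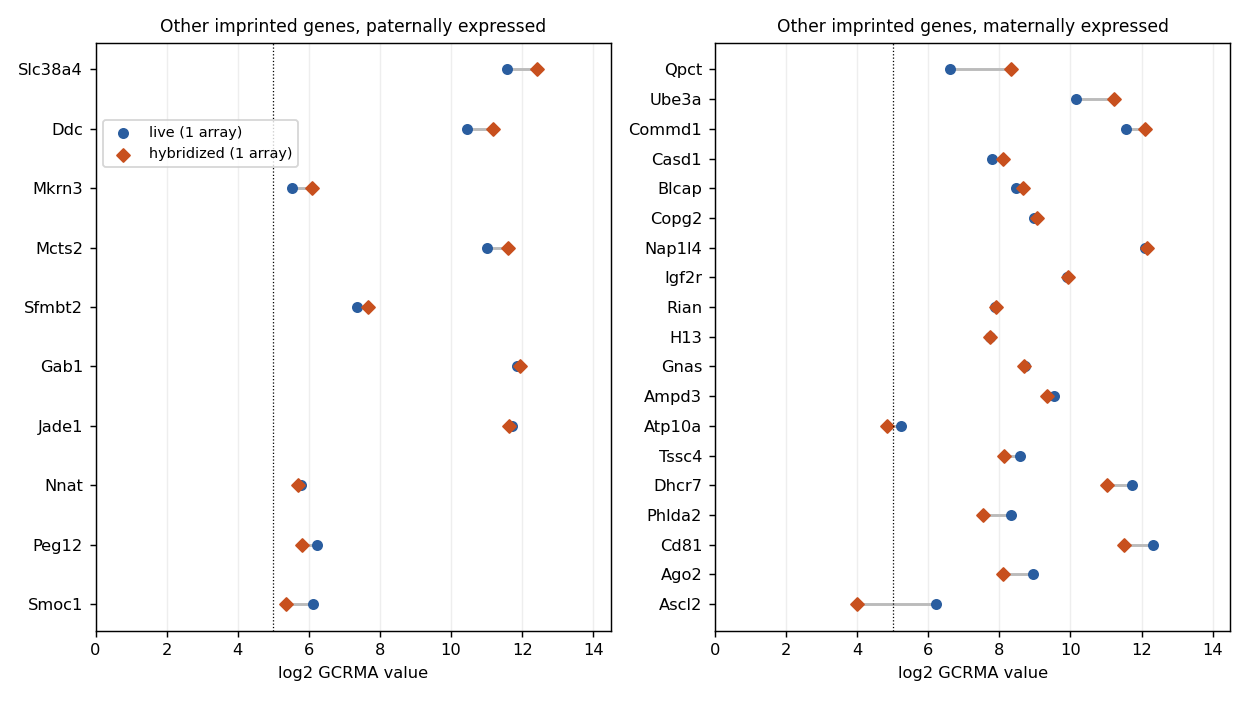
Log2 GCRMA value (horizontal axis) of the other imprinted genes with a mean of 5 or more on the hybridized array (orange diamonds) and the live array (blue circles), ordered by difference; the dotted line is the level of 5. Qpct and Ube3a are the maternally expressed genes higher by 2-fold or more, Ascl2 is the one lower by 2-fold or more, and no paternally expressed gene is 2-fold apart on its brightest probe set as deposited.

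Imprints that rest on DNA methylation persist because a set of factors keeps this methylation through cell division. Zfp57 and Zfp445 bind imprinted control regions, Trim28 and Setdb1 build silent chromatin there, and Dnmt1 with Uhrf1 copies methylation after replication. All 19 of these and related factors on the array were at the level. Of the 19, 2 were higher by 2-fold or more, 1 was lower by 2-fold or more, and the median was 0.14, beside 8.43%, 15.4% and a median of -0.17 over all genes at the level; the counts were 9 and 0 with control centring, and 3 and 0 with centring on the median gene. Zfp57 read 11.78 on the hybridized array and 11.75 on the live array. Zfp445 read 7.16 and 6.14, and Arid4b, a chromatin protein, 9.44 and 8.15. Trim28 was the factor lower by 2-fold or more, at 10.93 against 12.09 on its only probe set. Uhrf1, the brightest, read 12.54 and 12.82, Hells, a remodelling helicase, 12.59 and 12.27, and Zfp42 12.37 and 12.23. Dnmt1 was lower on both of its probe sets, at 11.58 against 12.52 and 10.02 against 11.70. Zfp57 and Dnmt1 were named after their values were seen.

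**Figure D5:**
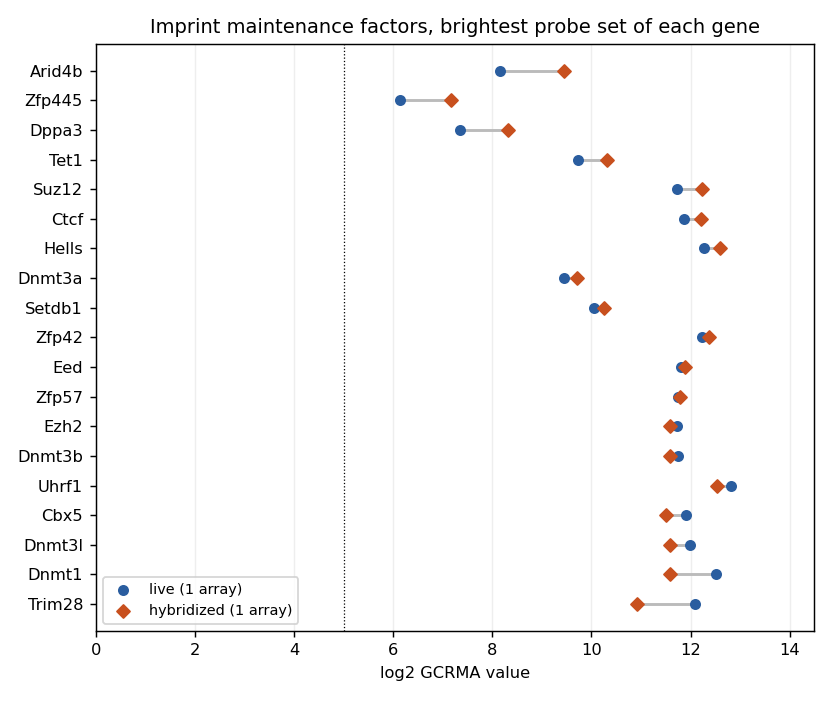
Log2 GCRMA value (horizontal axis) of 19 imprint maintenance factors on the hybridized array (orange diamonds) and the live array (blue circles), ordered by difference; the dotted line is the level of 5. Arid4b and Zfp445 are higher by 2-fold or more, Trim28 is lower by 2-fold or more, and Zfp57 reads almost alike at 11.78 and 11.75.

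Igf2, Igf2r and Grb10 act in the same growth pathway. Of 22 Igf and insulin pathway genes on the array, 13 were at the level, 0 were higher by 2-fold or more and 1 was lower by 2-fold or more, with a median of -0.37, which became 0.43 with centring on the controls, where 1 was higher and 0 lower. Over all genes at the level the shares were 8.43% and 15.4% and the median -0.17. The pathway gene lower by 2-fold or more as deposited was Igfbp4, a secreted Igf-binding protein, at 6.02 on the hybridized array and 7.51 on the live array. The receptors Igf1r and Insr were under the level. The brightest were Nedd4, a ubiquitin ligase that binds Grb10, at 12.22 and 12.08, Igf2bp1, an RNA-binding protein of Igf2 mRNA, at 11.49 and 11.43, and Igfbp2 at 10.69 and 11.53.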

How the data were processed

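RNA from 1 hybridized and 1 live iPSC sample was measured on 1 Affymetrix mouse array each, after NuGEN Ovation amplification and biotin labelling per the labels' protocols. The authors deposited 1 value per probe set, taken here as log2 GCRMA values from the tools in the submitters' processing notes (GCRMA and affy; versions not given in the sources used here) and from the range of 1.02 to 14.24. Of 22690 probe sets, 20380 have 1 gene in the platform table; 691 with several genes, 1555 unnamed and 64 controls were left out of counts. All 9 measured members matched RefSeq symbols (GRCm38.p6) by Entrez ID. The probe set with the highest mean stood for a gene; the level for comparison was a mean of 5, and 2-fold is a difference of 1. With 1 array per group no model was fitted, so precision is limited by the number of arrays. Members and lists were chosen with earlier results of these data known. Named genes were every member, and of the other lists the genes 2-fold apart, the 3 brightest and the members' imprinted neighbours. The lists of Igf genes, other imprinted genes and markers are textbook lists. Further list members are examples chosen after their values were seen. Alternatives covered the level, probe set choice, centring, loess (span 0.3), quantile normalization and fold threshold; leaving out only _x_at and _s_at probe sets, and a level on both arrays, were added after the data were seen. The procedure was run on simulated data with planted changes and little added noise. That run checks the code and not how reliable the calls are on these arrays. Tools were matplotlib 3.10.9, statsmodels 0.14.6, scipy 1.17.1, pandas 2.3.3 and numpy 2.4.6 under Python 3.11.15.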

Additional observations from a re-analysis of the deposited data

How the results depend on the processing

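No paired analysis was possible because each group has 1 array. Members at least 2-fold higher numbered 2 as deposited. They numbered 4 with centring on the hybridization controls, and 1 at a level of 7, at a 4-fold threshold and with the level required on both arrays. Members at least 2-fold lower numbered 1 as deposited and 2 at a level of 4 or with no level, where Igf2, whose mean is under 5, entered the count. They numbered 0 with averaged probe sets, without _x_at, _s_at and _a_at, without _x_at and _s_at only, with either centring, after loess and at 4-fold. The members' median of 0.32 became 0.13 with no level, 0.73 with averaged probe sets, 0.49 centred on the median gene, 1.12 centred on the controls and 0.48 after loess. Genes 2-fold apart numbered 1727 as deposited, 3437 at 1.5-fold and 200 at 4-fold; higher genes made up 35.4% of them as deposited, 49.4% centred on the median gene, 54.2% after loess and 91.8% centred on the controls. Other imprinted genes at least 2-fold higher numbered 2 as deposited, 5 with averaged probe sets, 1 without the 3 suffixes and after quantile normalization, 10 with control centring, 4 at 1.5-fold and 0 at 4-fold. Those lower numbered 1 as deposited, 2 at a level of 4 or none, 0 at a level of 7, with averaged probe sets or with the level on both arrays, and 6 at 1.5-fold. Their median of 0.02 became 0.16 with averaged probe sets, 0.19 and 0.82 with median and control centring and 0.17 after loess. The sign of Plagl1 turned to -0.30 with averaged probe sets and -0.72 without _x_at and _s_at, and that of Cdkn1c, which is under the level, to 0.41 with control centring and 0.13 after loess. For the shifts between centrings the cause is the constant added; for the others the cause was not tested.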

Other observations

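Dimmer probe sets of genes with several probe sets leaned one way. Of 4438 that were not the brightest of their gene and read 5 or more on either array, 7.59% were higher by 4-fold or more on the hybridized array and 0.631% lower. For the brightest probe sets of all genes, 7513 of them, the shares were 1.22% and 1.54%. The Peg3 probe set 1417356_at (6.59 against 2.54) is among 34 dimmer probe sets with a difference of 4.05 or more. In the lists described above the same form was seen at Setdb1, with 10.25 against 10.05 on its brightest probe set and 7.52 against 3.04 on its dimmest, and at Igf2bp3, with 10.89 against 10.86 and 9.34 against 6.51. Peg10 has a single probe set and so counts among the brightest. Whether its difference is of this form was not tested. The 5' probe sets of the Actb and Gapdh controls were higher on the hybridized array by 1.76 and 0.96 while their 3' probe sets were lower, and for Tfrc both the 5' (1.88) and the 3' probe set (1.38) were higher; the controls' part in this pattern was not tested.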
